A study of Homo sapiens with 9 samples.

Results

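Transcript levels in ALL-SIL cells 24 h after electroporation with s47, an siRNA against TLX1, were compared with those in cells electroporated with a scrambled siRNA. The comparison rests on 6 of the 9 libraries of the study, 3 per siRNA, chosen by their labels. The other 3 libraries received s46, a different siRNA against TLX1, and serve here for the shared estimate of spread and for a direct contrast of s47 with s46. The scrambled siRNA is labelled 400 nM, and no dose is labelled for s47 or s46. All 9 libraries are total RNA from the same unmodified cell line, with no other agent or allele named in the labels. The labels do not tell whether the replicates are separate cultures. P-values therefore measure only how much these libraries vary, and that variation may be technical.

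ALL-SIL is a human T-cell acute lymphoblastic leukaemia (T-ALL) line. TLX1 is a homeobox transcription factor that is silent in normal thymocytes and is switched on in a subset of T-ALL, often by a translocation to a T-cell receptor locus; these leukaemias resemble cortical thymocytes, the stage at which the T-cell receptor α and β genes are rearranged. An siRNA guides the RNA-induced silencing complex to a matching transcript, which is then cut. A transcript that pairs only with the short seed at the 5′ end of the guide strand can also be lowered, as it would be by a microRNA.

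Sense gene reads numbered 21134650 to 31557368 per library among the 6, and 16072 of the 58096 genes listed passed the filter on low counts. Levels are given as CPM, the read count relative to the library total after scaling by the trimmed mean of M values (TMM). Scrambled replicate 1 stood apart. It had the fewest sense gene reads of the 6. Reads in genes made up 39.92% of it, against 52.65% to 59.91% of the others. Reads outside genes made up 36.81% of it, against 23.79% to 31.41%. Multimapping reads made up 14.5% of it and 6.66% to 7.34% of each of the remaining 5, and its log levels correlated at r = 0.967 and 0.975 with those of scrambled replicates 2 and 3 across genes, against 0.986 to 0.989 for every other pair within a group. All 12 T-lineage markers checked were detected, with a summed level of 1693 to 2368 CPM with scrambled siRNA and 1804 to 2187 CPM with s47. PTCRA, which encodes the pre-T-cell receptor α chain, was the 1 marker of that list under 1 CPM in every library, at up to 0.532 CPM. All 7 myeloid and all 6 defining erythroid and megakaryocyte markers stayed under 1 CPM. The wider erythroid and megakaryocyte list of 11 genes holds TFRC, the transferrin receptor, which dividing cells of many types make. TFRC stood at 1802, 2658 and 1892 CPM with scrambled siRNA and at 3190, 2911 and 2530 CPM with s47 (log2 fold change 0.44 ± 0.18, SE) and did not pass the test used below (edgeR adjusted p 0.384).

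TLX1 (ENSG00000107807.12, chromosome 10, 101130505 to 101137789, plus strand, GRCh38) was lower in every s47 library. It stood at 198, 188 and 171 CPM in scrambled replicates 1, 2 and 3, and at 63.5, 73.7 and 75.0 CPM in s47 replicates 1, 2 and 3. The groups did not overlap, and the lowest scrambled library was above the highest s47 library by more than the spread within either group. The log2 fold change was -1.39 ± 0.14 (SE, n = 3 per group; edgeR quasi-likelihood test, Benjamini-Hochberg adjusted p 0.00122), a 2.63-fold reduction. TLX1 passed the threshold of an adjusted p under 0.05 without each library in turn, at -1.44 to -1.32. A reduction of this size leaves TLX1 transcript in the s47 libraries, and in bulk RNA fewer cells with the transcript and less of it per cell cannot be told apart.

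In total, 53 of the 16072 genes passed the threshold (0.33%), 39 of them higher with s47 (0.243%) and 14 lower (0.0871%). An unadjusted p under 0.05 was reached by 840 genes in the higher direction (5.23%) and 1138 in the lower (7.08%). In all 53 the 3 s47 libraries lay on one side of the 3 scrambled libraries, which was also the case in 2400 of the genes tested (14.9%; 7.25% with s47 above and 7.68% with s47 below). The median log2 fold change over all genes was -0.03, and 46.7% of genes lay above 0. Of the 53, 50 are protein-coding (0.448% of 11164 tested).

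The number of calls depended on single libraries. It was 69 without scrambled replicate 1, including 48 of the 53, and 275 without scrambled replicate 2, including all 53 and with 162 higher and 113 lower. It was 5 without scrambled replicate 3, 4, 6 and 8 without s47 replicates 1, 2 and 3, and 24, 24 and 16 without s46 replicates 1, 2 and 3, every one of these calls being among the 53. TLX1, TC2N, TSHR and IL7R were the 4 genes that passed in each of the 9 fits with 1 library left out. The highest adjusted p of the other 49 over these fits ran from 0.0783 (RXRA and CCR4) to 0.324 (CLIC4, given after its values were seen), and no gene of the 53 changed sign in any of them.

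**Figure D1:**
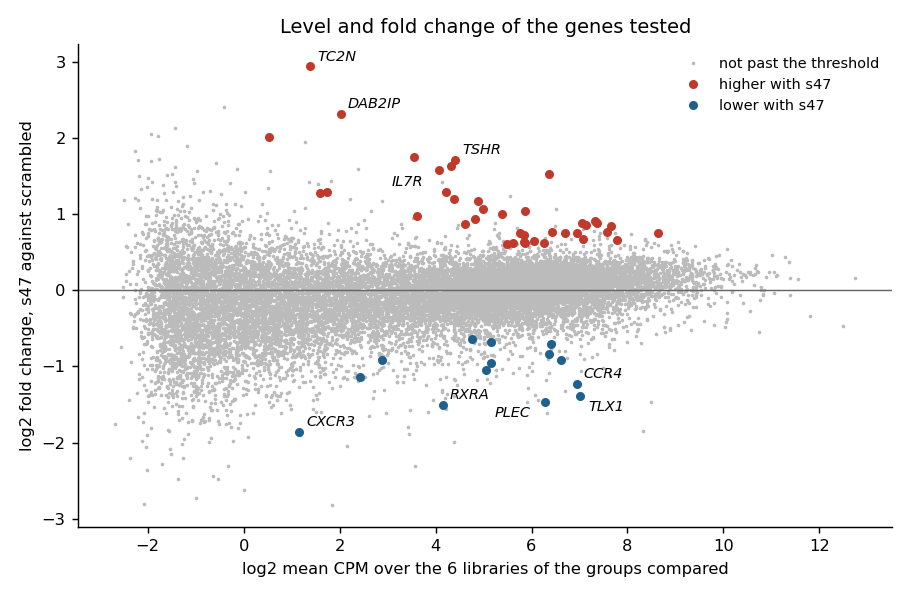
Each point is 1 of the 16072 genes tested, with the log2 mean CPM over the 6 libraries on the x axis and the log2 fold change of s47 against scrambled on the y axis; red points passed the threshold as higher, blue as lower and grey did not pass. The called genes reach from 2.94 (TC2N) to -1.86 (CXCR3), and genes of low counts spread as widely without passing.

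The largest rises were in genes that gave few reads with scrambled siRNA. TC2N (chromosome 14, 91779751 to 91867536, minus strand), which encodes a protein with paired C2 domains, stood at 0.717, 0.539 and 0.551 CPM in the scrambled libraries and at 3.74, 4.64 and 5.49 CPM in the s47 libraries. Its log2 fold change was 2.94 ± 0.28 (SE; edgeR adjusted p 0.00122), and every s47 library was well above every scrambled one. DAB2IP (chromosome 9, 121567057 to 121785530), a Ras GTPase-activating protein counted among T-ALL tumour suppressor genes here, went from 1.97, 0.573 and 1.58 CPM to 6.93, 5.50 and 7.88 CPM. That is a log2 fold change of 2.32 ± 0.34 (edgeR adjusted p 0.0161), with the scrambled libraries more scattered relative to their mean than the s47 ones. FRMD4A, a FERM-domain scaffold protein, rose by 2.01 ± 0.33 (edgeR adjusted p 0.0269) in the sense counts and by 0.62 when reads of both strands were counted together. The adjusted p of DAB2IP reached 0.0923 and that of FRMD4A 0.112 when 1 library was left out.

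The larger rises also included IL7R, TSHR, DNTT and IGLL1. IL7R (chromosome 5, 35852695 to 35879603) encodes the α chain of the interleukin-7 receptor, which supports survival of thymocytes and naive T cells. It stood at 9.14, 8.80 and 7.23 CPM with scrambled siRNA and at 20.8, 24.0 and 30.3 CPM with s47, a rise of 1.58 ± 0.17 on the log2 scale (SE; edgeR adjusted p 0.00227). TSHR (chromosome 14, 80954989 to 81146302), the thyrotropin receptor, went from 12.1, 8.77 and 8.81 CPM to 37.1, 31.3 and 28.5 CPM, a rise of 1.71 ± 0.19 (edgeR adjusted p 0.00227). In both genes the groups were separated by a gap wider than either group's own range. DNTT (chromosome 10, 96304396 to 96338564), the terminal transferase that adds untemplated bases at V(D)J junctions, rose from 11.6, 7.82 and 10.02 CPM to 36.0, 21.8 and 32.9 CPM. Its log2 fold change was 1.63 ± 0.24 (edgeR adjusted p 0.0171). IGLL1 (chromosome 22, 23573125 to 23580308) encodes part of the surrogate light chain of the pre-B-cell receptor. It rose from 6.54, 5.19 and 4.52 CPM to 17.5, 21.9 and 14.8 CPM, by 1.74 ± 0.26 (edgeR adjusted p 0.0161).

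DNTT lost its call without scrambled replicate 3 or s47 replicate 1 or 3 (adjusted p up to 0.107), and IGLL1 without scrambled replicate 3 or s47 replicate 1 or 2 (up to 0.106). The 6 B-lineage markers that were checked, which leave out IGLL1, summed to 5.47 to 10.8 CPM with scrambled siRNA and 5.52 to 9.74 CPM with s47, and CD22 was at 0 in all 6 libraries. CD79A, which made up most of that sum, stood at 0.14 ± 0.28 (SE) and PAX5 at -0.85 ± 0.61, and neither passed. The part of such cells in the rise of IGLL1 was not tested. MZB1, an endoplasmic reticulum protein known from B cells and plasma cells, rose by 0.77 ± 0.12 (edgeR adjusted p 0.025). CCR8, a chemokine receptor, rose from 15.8, 22.6 and 19.3 CPM to 35.6, 38.2 and 37.0 CPM, by 0.94 ± 0.15 (edgeR adjusted p 0.0223). The T-cell receptor β segment TRBV7-2 rose by 1.27 ± 0.24 (edgeR adjusted p 0.0458) from 1.75 to 4.24 CPM on average. Reads of such segments can be divided among near-identical copies. The adjusted p (edgeR) of TRBV7-2 was 0.0619 without scrambled replicate 1 and up to 0.236 without others. It passed in 1 of the 9 fits with 1 library left out. RCAN1, an inhibitor of calcineurin, rose by 0.99 ± 0.18 (edgeR adjusted p 0.0446, and 0.0563 without scrambled replicate 1). RCAN1 also passed in 1 of these 9 fits, with an edgeR adjusted p of up to 0.218.

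**Figure D2:**
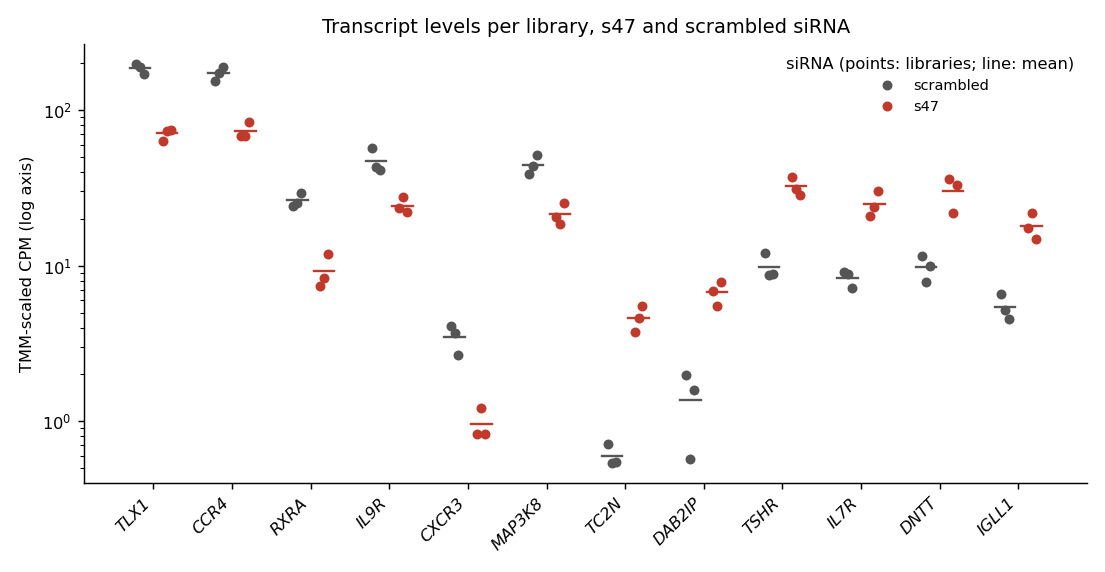
TMM-scaled CPM (log axis) of 12 called genes in each of the 3 scrambled (grey) and 3 s47 (red) libraries, with points for libraries and a line at each group's mean. TLX1, CCR4, RXRA, IL9R, CXCR3 and MAP3K8 lay lower and TC2N, DAB2IP, TSHR, IL7R, DNTT and IGLL1 higher in every s47 library.

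The other higher genes include TOP1MT, the mitochondrial topoisomerase I (1.296 ± 0.22, SE), ADGRG1, an adhesion G-protein-coupled receptor (1.202 ± 0.20), CSGALNACT1, which starts chondroitin sulphate chains (1.17 ± 0.22), LBH, a transcription cofactor (1.07 ± 0.14), and GCNT1, which branches O-linked glycans (0.98 ± 0.17). SCAMP1, a membrane protein of recycling vesicles, stood at 29.6, 43.5 and 41.1 CPM with scrambled siRNA and at 76.5, 78.8 and 78.6 CPM with s47 (1.03 ± 0.15). HIPK3, a nuclear protein kinase, went from 83.3, 107 and 109 CPM to 181, 185 and 176 CPM (0.86 ± 0.12). In SCAMP1 and HIPK3 scrambled replicate 1 was the lowest library, and the log2 fold changes without it were 0.88 and 0.75. The P-body component LSM14A (0.91 ± 0.14), NDC1, which anchors nuclear pores (0.88 ± 0.13), the RNA-binding protein ARPP21 (0.87 ± 0.15) and the phosphoribosyl pyrophosphate synthetase PRPS2 (0.85 ± 0.15) also rose. Adjusted p (edgeR) was 0.0107 for LBH, 0.0158 for SCAMP1 and HIPK3, and up to 0.0466 (CSGALNACT1) for the others named in this paragraph. Without scrambled replicate 1 the log2 fold change of ADGRG1 was 1.51 and that of CSGALNACT1 1.48. Over the 9 fits with 1 library left out, these changes went down to 1.08 and 0.97. Each of the 2 genes passed in 2 of those fits, with edgeR adjusted p up to 0.144 for ADGRG1 and 0.225 for CSGALNACT1.

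**Figure D3:**
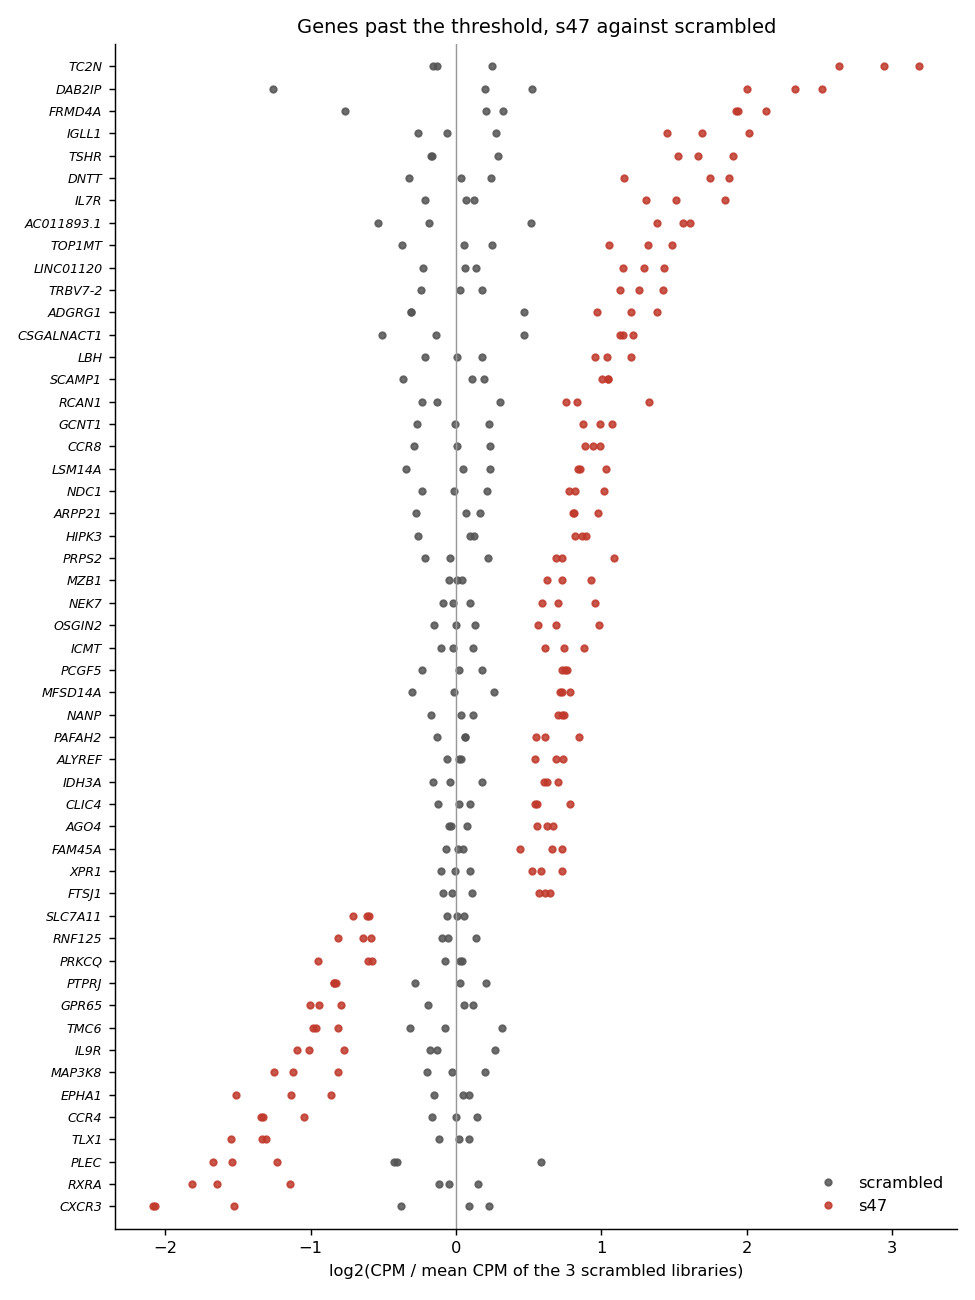
The log2 ratio of each library's CPM to the mean of the 3 scrambled libraries (x axis) for 52 of the 53 genes past the threshold (rows), with scrambled libraries in grey and s47 libraries in red. The s47 points lie on one side of all scrambled points in every row, and the scrambled points scatter most for DAB2IP, FRMD4A, AC011893.1 and PLEC.

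The 14 lower genes include the chemokine receptor genes CCR4 and CXCR3 and the cytokine receptor gene IL9R. CCR4 (chromosome 3, 32951574 to 32956349), a chemokine receptor of skin-homing and type 2 helper T cells, stood at 154, 172 and 190 CPM with scrambled siRNA and at 68.6, 67.9 and 83.5 CPM with s47. It fell by 1.23 on the log2 scale (SE 0.16; edgeR adjusted p 0.00987). CXCR3, a chemokine receptor of effector T cells, went from 4.08, 3.71 and 2.68 CPM to 0.824, 1.21 and 0.832 CPM, a log2 fold change of -1.86 ± 0.35 (edgeR adjusted p 0.0458). The call of CXCR3 was lost without scrambled replicate 1 (0.0568) and in 6 of the other fits (up to 0.266), while that of CCR4 was lost without scrambled replicate 3 or s47 replicate 1 or 2 (up to 0.0783). IL9R, the interleukin-9 receptor, went from 56.7, 43.0 and 41.5 CPM to 23.3, 27.6 and 22.1 CPM (-0.95 ± 0.16, edgeR adjusted p 0.0269). The groups did not overlap in any of the 3 genes.

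RXRA (chromosome 9, 134317098 to 134440585), a nuclear receptor that pairs with many others on DNA, stood at 24.2, 25.5 and 29.2 CPM with scrambled siRNA and at 7.45, 8.40 and 11.9 CPM with s47. Its log2 fold change of -1.504 ± 0.20 (SE; edgeR adjusted p 0.0107) was -1.56 without scrambled replicate 1. PLEC, the cytoskeletal linker plectin, was at 172 CPM in scrambled replicate 1, 85.3 and 86.5 CPM in replicates 2 and 3, and 35.9, 48.7 and 39.4 CPM with s47. Its log2 fold change was -1.47 ± 0.26 (edgeR adjusted p 0.0458), and -1.05 without the high scrambled library. MAP3K8, a kinase of MAP-kinase and NF-κB signalling, fell from 38.9, 43.7 and 51.1 CPM to 20.5, 18.7 and 25.4 CPM (-1.05 ± 0.15, edgeR adjusted p 0.0158).

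The remaining lower genes were the ephrin receptor EPHA1 (-1.14 ± 0.21, SE), the membrane protein TMC6 (-0.92 ± 0.15), the proton-sensing receptor GPR65 (-0.91 ± 0.17), the receptor phosphatase PTPRJ (-0.83 ± 0.13), the T-cell receptor kinase PRKCQ (-0.70 ± 0.13), the ubiquitin ligase RNF125 (-0.67 ± 0.13) and the cystine transporter SLC7A11 (-0.64 ± 0.12). Their edgeR adjusted p was 0.0198 (PTPRJ) to 0.0464 (GPR65). SLC7A11 had the tightest groups, at 31.5, 33.1 and 34.2 CPM with scrambled siRNA and 20.2, 21.6 and 21.8 CPM with s47. PRKCQ was at 98.9, 107 and 108 CPM against 69.8, 54.0 and 68.7 CPM. All 7 lost their call without scrambled replicate 3 and without each s47 library, with adjusted p up to 0.277.

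Long non-coding RNAs can be seen in total RNA whether or not they carry a poly(A) tail. Of 2845 tested, 2 passed the threshold (0.0703%), both higher. AC011893.1 (ENSG00000226806.1, chromosome 2, 135820191 to 135823087, plus strand) stood at 29.2, 60.5 and 37.2 CPM with scrambled siRNA and at 110, 129 and 125 CPM with s47 (1.52 ± 0.21, SE, edgeR adjusted p 0.0158). LINC01120 (ENSG00000223631.1, chromosome 2, 131402901 to 131409049, plus strand) went from 1.66, 2.02 and 2.13 CPM to 4.76, 4.29 and 5.22 CPM (1.29 ± 0.23, edgeR adjusted p 0.0424). The s47 libraries were above the scrambled ones in both. AC011893.1 had an adjusted p (edgeR) of 0.00382 without scrambled replicate 1 and up to 0.0958 without others. LINC01120 had 0.0534 without scrambled replicate 1 and up to 0.207 without others. Of the 9 fits with 1 library left out, AC011893.1 passed in 5 and LINC01120 in 1. Reads on the other strand of annotated genes, counted apart, gave 2 genes past the threshold of 9964 tested (0.0201%) and 721 with an unadjusted p under 0.05 (7.24%, edgeR); both of the 2, AP000345.1 and LCT, lie opposite genes that rose in sense counts.

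Genes were then read by function, over 25 lists. Their counts and medians stand beside those of all genes (median -0.03, 46.7% above 0, 0.33% past the threshold). The lists were chosen with earlier results of these data known, so calls in them are a description and support nothing on their own. The 24 genes of cortical thymocytes had a median of 0.22, with 18 above 0, and of 0.38 without scrambled replicate 1. DNTT and ARPP21 passed as higher and no member passed as lower, while 6 lay below 0. ARPP21 went from 19.4, 14.3 and 18.1 CPM to 30.4, 30.1 and 34.0 CPM, and its adjusted p reached 0.192 when 1 library was left out. The members of highest level were LEF1 (0.20 ± 0.13, SE), SOX4 (0.22 ± 0.17), BCL11B (0.21 ± 0.13), THEMIS (0.15 ± 0.15), TCF7 (0.07 ± 0.17) and AEBP1 (0.00 ± 0.31), none of which passed. RAG1 and RAG2, the recombinase of antigen-receptor genes, are given after their values were seen. RAG1 stood at 16.98, 30.1 and 37.3 CPM in the scrambled libraries and 37.0, 61.4 and 99.9 CPM in the s47 libraries (1.23 ± 0.49, edgeR adjusted p 0.397). RAG2 stood at 4.62, 8.90 and 14.9 CPM against 15.7, 20.6 and 39.8 CPM (1.42 ± 0.52, edgeR adjusted p 0.379). RAG1 overlapped between the groups, with the highest scrambled library just above the lowest s47 library, RAG2 did not overlap, and in both the spread within a group was wide.

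Mature T-cell, homing and egress genes went both ways. Of 22 tested, IL7R and CCR8 passed as higher and CCR4 and CXCR3 as lower. The median of the mature T-cell, homing and egress genes was -0.09, -0.02 without scrambled replicate 2, -0.04 without scrambled replicate 3 and near 0 without s47 replicate 1. The integrins ITGAL (-0.30 ± 0.17, SE), ITGA4 (0.39 ± 0.18), ITGB1 (0.10 ± 0.14) and ITGB2 (-0.10 ± 0.16) and the chemokine receptor CXCR4 (0.35 ± 0.14) did not pass. In the T-cell receptor list of 27 genes, 1 passed as lower (PRKCQ) and none as higher. The median of that list was -0.13 (-0.05 without scrambled replicate 1). CD3D (0.37 ± 0.14), CD3G (0.25 ± 0.15) and LCK (0.06 ± 0.11) did not pass. Among 29 cytokine receptor and JAK-STAT genes, IL7R passed as higher and IL9R as lower. The median there was -0.17, or -0.05 without scrambled replicate 1. The targets CISH (-0.12 ± 0.16), PIM1 (-0.19 ± 0.14) and SOCS2 (0.12 ± 0.15), which respond to STAT signalling, did not pass.

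NOTCH1 signalling drives most T-ALL, and of 23 NOTCH pathway genes and targets 0 passed, with a median of -0.10 (-0.04 without scrambled replicate 1). NOTCH1 itself stood at 797, 430 and 339 CPM in the scrambled libraries and at 477, 740 and 395 CPM in the s47 libraries (0.04 ± 0.36, SE). Its spread within each group was wider than the difference. The NOTCH target MYC (0.37 ± 0.21) and the ribonucleoprotein assembly factor SHQ1 (0.62 ± 0.14, edgeR adjusted p 0.103) did not pass. Over 27 T-lineage and leukaemia transcription factors 1 passed as lower (RXRA), with a median of -0.11, or 0.04 without scrambled replicate 1. MYB (0.63 ± 0.14, edgeR adjusted p 0.113), ETS1 (-0.16 ± 0.11) and IKZF2 (-0.49 ± 0.14) did not pass. Of 27 T-ALL tumour suppressor genes 1 passed as higher (DAB2IP), with a median of 0.05, and USP7 (0.56 ± 0.14) did not pass. Of 19 nuclear receptors and partners of RXRA, RXRA fell and 15 of the 19 lay below 0, with a median of -0.18, or -0.08 without scrambled replicate 1.

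Several growth lists had medians above 0 and no gene past the threshold. Over the 78 genes of cytosolic ribosomal proteins the median was 0.21 with 77 above 0, and 0.06 without scrambled replicate 1. Their summed level was 29440 CPM in scrambled replicate 1, 44461 and 38616 CPM in replicates 2 and 3, and 39177 to 48364 CPM with s47. Scrambled replicate 1 was therefore the library that stood below the rest. For the 47 MYC and ribosome biogenesis genes it was 0.21 (0.14 without scrambled replicate 1), with NPM1 at 0.40 ± 0.20 (SE) and NCL at 0.42 ± 0.14. Heat-shock and chaperone genes had 0.29 over 26 (0.14 without it), with HSP90AA1 at 0.33 ± 0.15. G1/S and DNA replication genes had 0.11 over 55 (0.19 without it) and G2/M genes -0.02 over 42 (-0.15 without it). Without scrambled replicate 2 these medians were 0.37 for cytosolic ribosomal protein genes, 0.40 for MYC and ribosome biogenesis genes, 0.44 for heat-shock and chaperone genes, 0.07 for G1/S and DNA replication genes and 0.19 for G2/M and mitotic checkpoint genes. The MYC and ribosome biogenesis genes had 0.13 without scrambled replicate 3, the cytosolic ribosomal protein genes 0.14 without s47 replicate 3, and the G1/S and DNA replication genes 0.05 and 0.28 without s47 replicates 1 and 2. The proliferation marker MKI67 stood at -0.48 ± 0.21 and TOP2A at 0.01 ± 0.21.

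Calls in lists that bear on a response to the siRNA or to electroporation stand beside 0.33% of all genes tested. Of 42 interferon and RNA sensor genes 0 passed, with a median of -0.04 and members from -0.88 to 2.40. IFITM1 (-0.12 ± 0.16, SE) and EIF2AK2 (-0.04 ± 0.16) were among those of highest level. Of 29 genes of RNA interference and microRNA function, AGO4, an Argonaute protein, and LSM14A rose. The median of that list was -0.13, and it turned to 0.02 without scrambled replicate 1. AGO4 went from 45.1, 44.6 and 48.7 CPM to 71.3, 73.4 and 68.0 CPM (0.62 ± 0.11, edgeR adjusted p 0.033). Amino acid and integrated stress response genes had a median of -0.19 over 25 (-0.10 without scrambled replicate 1) with 1 lower (SLC7A11), and ATF4 was at 0.04 ± 0.16. The p53 target (0.03 over 23), BCL2 family (0.03 over 15), glycolysis and hypoxia (0.05 over 31) and cholesterol synthesis lists (0.00 over 29) had no gene past the threshold. MDM2 was at 0.10 ± 0.11 and BCL2 at 0.03 ± 0.12.

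Among lists of other cell types, IGLL1 was the 1 gene of 4 B-lineage genes tested to pass. Of 7 natural killer and cytotoxic genes tested 0 passed, with a median of -0.34 (-0.50 without scrambled replicate 1, 0.02 without scrambled replicate 3). NKG7, a granule protein also made by T cells, stood at 180, 180 and 155 CPM against 109, 132 and 109 CPM (-0.56 ± 0.15, SE, edgeR adjusted p 0.2), while NCAM1, KLRD1, PRF1 and GNLY stayed under 1 CPM in all 6 libraries. Of the stroma and epithelium markers, PECAM1 was at 87.8 to 97.7 CPM with scrambled siRNA and 103 to 126 CPM with s47, and the other 4 stayed under 1 CPM.

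**Figure D4:**
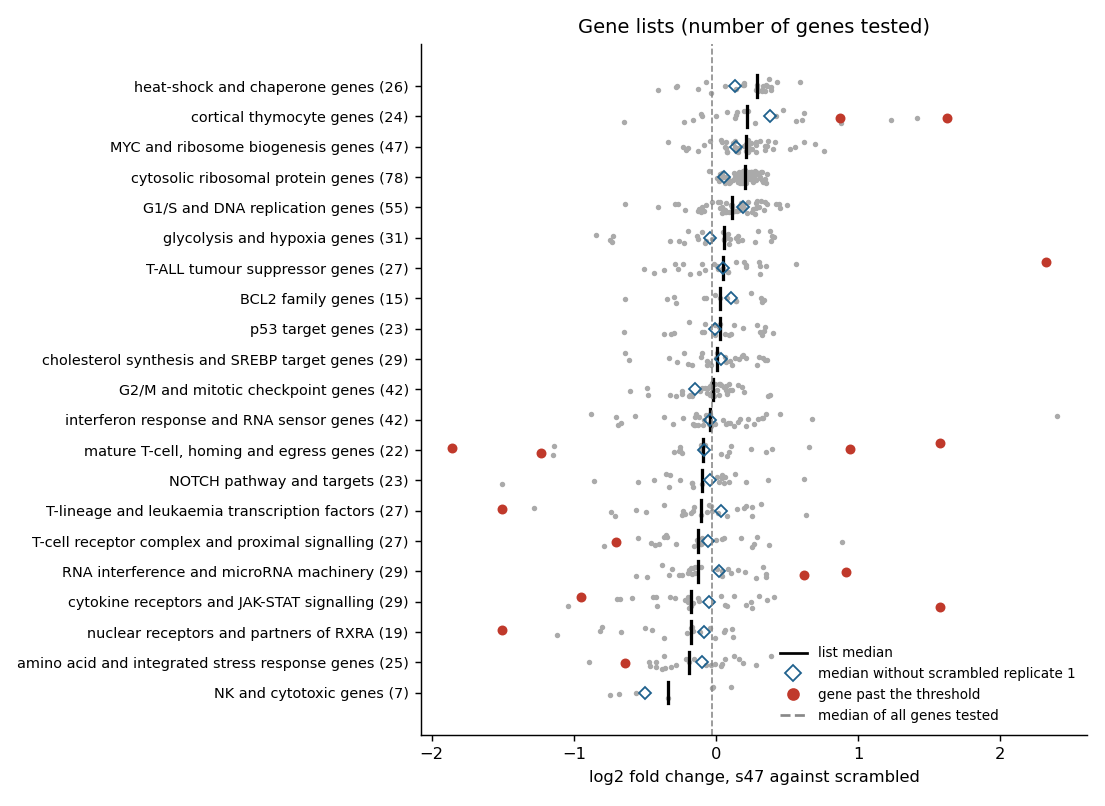
Log2 fold changes of s47 against scrambled (x axis) for the members of 21 lists (rows, with the number of genes tested), 1 point per gene, red where it passed the threshold; black bars are list medians, diamonds the medians without scrambled replicate 1 and the dashed line the median of all genes. List medians lay between -0.34 and 0.29, and those of ribosomal protein and heat-shock genes moved most toward the dashed line without that library.

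Since siRNAs can lower transcripts that carry a match to a seed, the 3′ untranslated regions (3′ UTRs) of the called genes were read for short words. Of 11046 protein-coding genes tested that have a 3′ UTR, 629 (5.69%) carried GCAGTAC in it, read on the transcript strand. Among the higher genes with a 3′ UTR, 17 of 36 (47.2%) carried it, and among the lower genes 0 of 14. The word was picked from these same libraries, so the shares are a description and support nothing on their own. The sites of 6 higher genes are shown with 10 bases on either side, 5′ to 3′ on the transcript strand, with the word in capitals (GENCODE 29 transcripts, GRCh38).
TC2N, chr14:91780472-91780498, minus strand: atttttaaaaGCAGTACtcctagggaa
LBH, chr2:30258651-30258677, plus strand: ctgcccagctGCAGTACtcacgcccca
SCAMP1, chr5:78476413-78476439, plus strand: tatataatatGCAGTACattatccaaa
HIPK3, chr11:33354720-33354746, plus strand: tttttacattGCAGTACttgttttgct
NDC1, chr1:53766608-53766634, minus strand: gccccttcaaGCAGTACatgccaaatt
LSM14A, chr19:34227646-34227672, plus strand: ttaaactaaaGCAGTACttcagtggga
All 6 sites lie in annotated 3′ UTRs. The bases around the word differ from gene to gene.

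The carriers as a whole lay slightly higher with s47. Their median log2 fold change was 0.13, against 0.01 in the genes without the word, a difference of 0.124. The difference was 0.109 without scrambled replicate 1, 0.10 without s47 replicate 1, and 0.16, 0.145 and 0.106 in genes with short, middle and long 3′ UTRs. Carriers had longer 3′ UTRs, with a median of 3257 bases against 1245. By library, the carriers' median deviation from each gene's mean, less that of other genes, was -0.105, -0.0992 and -0.0619 in scrambled replicates 1, 2 and 3. It was 0.058, 0.0419 and 0.0205 in s47 replicates 1, 2 and 3, and 0.0899, 0.0218 and 0.0418 in s46 replicates 1, 2 and 3. The 3 scrambled libraries were thus the low ones and both TLX1 siRNAs the high ones. Deviations were taken from each gene's mean over all 9 libraries, so low values in 1 group raise those of the others. The word was picked from these same libraries, so its median shift and its order by library are also only a description. They support nothing on their own. The overlapping word CAGTACA gave a difference of 0.0976, and of 0.0527 without scrambled replicate 1.

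The higher genes divide into carriers and non-carriers. The 17 carriers had log2 fold changes of 0.61 to 2.94 with a median of 0.76, and include TC2N, TOP1MT, LBH, SCAMP1, LSM14A, NDC1, HIPK3 and AGO4. The 19 without it had 0.62 to 2.32 with a median of 0.98, and include DAB2IP, FRMD4A, IGLL1, TSHR, DNTT, IL7R, ADGRG1, CSGALNACT1, RCAN1, GCNT1, CCR8 and ARPP21. TSHR carries the overlapping word CAGTACA, and 19 of the 36 higher genes carry either word. Non-carriers also had lower levels with scrambled siRNA, with a median of 18.2 CPM against 46.1 CPM in carriers. Of the 19 non-carriers 11 were under 20 CPM there, and of the 17 carriers 2. Whether the scrambled siRNA matches these sites was not tested, since its sequence is not used here.

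A different word, AATCACT, was read in the same way. It also came from earlier results of these libraries, in which it differed between s47 and s46. TLX1 itself holds it, once, at chr10:101136864-101136890, in exon 3 of 3. That stretch is coding in the transcript ENST00000370196.10 and 3′ UTR in ENST00000467928.2. The word occurs in the longest transcript of 19.6% of genes, and GCAGTAC, which occurs in 15.2%, is not in any of the 3 TLX1 transcripts searched. The TLX1 site and those in the 3′ UTRs of a pair of lower genes are shown with the word in capitals.
TLX1, chr10:101136864-101136890, plus strand: actcgaccaaAATCACTagcgtcacgt
PRKCQ, chr10:6427735-6427761, minus strand: gcagacaagtAATCACTaacccgtttt
GPR65, chr14:88012720-88012746, plus strand: ttgtttatctAATCACTtggcttcatt
The sequence of s47 is not used here, and a match of s47 to these sites was not tested.

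AATCACT was carried by 1863 of the 11046 genes (16.9%), by 5 of the 14 lower genes (TLX1, PRKCQ, SLC7A11, RNF125 and GPR65) and by 13 of the 36 higher ones (36.1%). Its carriers had a median 3′ UTR of 3186 bases against 1083. Their median log2 fold change was 0.03 against 0.01 in other genes, and the difference of 0.0212 became -0.0071 without scrambled replicate 1. By library the carriers' deviation was -0.0963, -0.0011 and 0.0079 in scrambled replicates 1, 2 and 3, 0.0411, -0.0262 and -0.0264 in s47 replicates 1, 2 and 3, and 0.0786, -0.0179 and 0.0208 in s46 replicates 1, 2 and 3. In each group replicate 1 was far from the others, so the groups overlapped for this word.

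**Figure D5:**
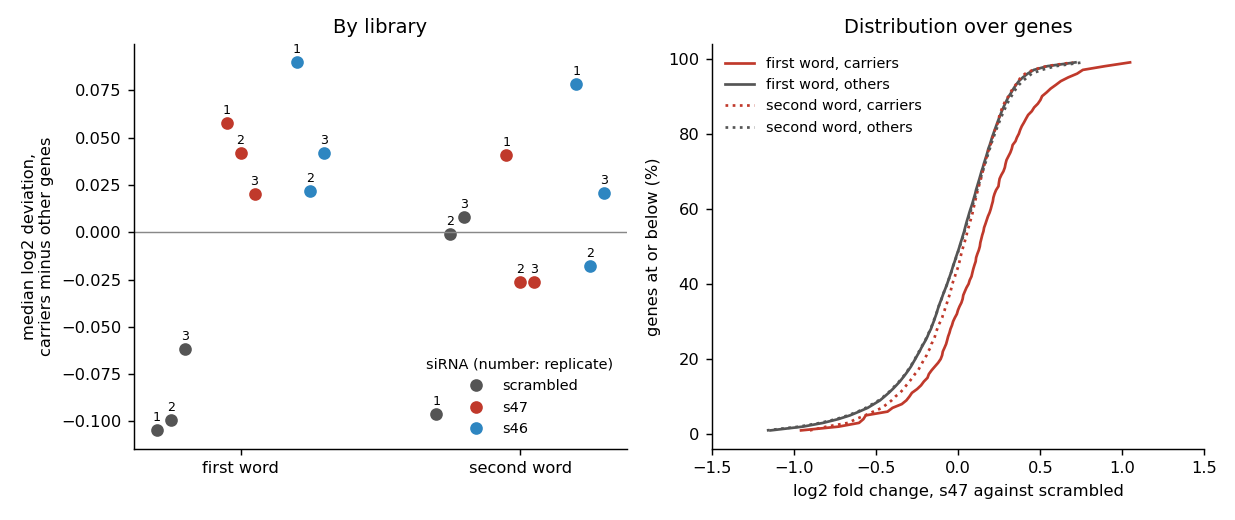
Left, for 3′ UTR carriers of the first word (GCAGTAC) and the second word (AATCACT), the median log2 deviation of each of the 9 libraries, carriers minus other genes, in grey for scrambled, red for s47 and blue for s46, with the replicate number above each point. Right, the cumulative share of genes (y axis, percent) by log2 fold change of s47 against scrambled (x axis); from the 2nd percentile up, carriers of the first word lie to the right of the other 3 curves (median 0.13 against 0.01 to 0.03), and carriers of the second word part from its other genes mainly in the lower tail (-0.57 against -0.67 at the 5th percentile).

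Whether a change was particular to s47 was asked in the direct contrast with s46. No gene passed the threshold (0 of 16072, 0% by edgeR; DESeq2 and limma-voom also called 0), and 113 had an unadjusted p under 0.05 (0.703%). TLX1 differed by -0.11 ± 0.13 on the log2 scale (SE). Of the 53 genes called with s47, 6 had an unadjusted p under 0.05 in this contrast, and all 6 had an adjusted p of 1. Each of the 6 moved further from scrambled with s47 than with s46. They were taken from genes already called with s47, and that choice favours a larger change with s47. Their direction and number therefore support nothing on their own. GPR65 was at 5.58, 4.80 and 5.02 CPM with s47 and at 7.40, 6.71 and 6.82 CPM with s46, a difference of -0.44 ± 0.17 (unadjusted p 0.0232 in edgeR). RNF125 was at 28.0, 24.8 and 29.1 CPM against 33.7, 32.0 and 36.8 CPM, a difference of -0.32 ± 0.13 (0.0241). GPR65 and RNF125 did not overlap between the siRNAs. The share of all genes without overlap between s47 and s46 was not counted, so that separation is a description only. MAP3K8 differed by -0.36 ± 0.15, ADGRG1 by 0.48 ± 0.20, LINC01120 by 0.58 ± 0.22 and TC2N by 0.54 ± 0.24.

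Set side by side, the log2 fold changes against scrambled with s47 and s46 were -0.91 and -0.47 for GPR65, -1.05 and -0.69 for MAP3K8, 1.202 and 0.72 for ADGRG1, and 2.94 and 2.40 for TC2N. They were 1.58 and 1.497 for IL7R, 1.71 and 1.64 for TSHR, 1.63 and 1.26 for DNTT, -1.504 and -1.35 for RXRA, and -1.23 and -1.31 for CCR4. These values share their 3 scrambled control libraries, and s46 gave 28 genes past the threshold (0.174%). A p that misses the threshold in the direct contrast does not show that the siRNAs act alike.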

How the data were processed

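Total RNA of ALL-SIL cells, depleted of ribosomal RNA, was made into stranded libraries, per the labels' protocols. For each library the authors deposited a table of raw counts per gene. Its build is GRCh38, per the submitters' processing notes. What aligned and counted the reads, and with which annotation, is not given in the sources used here. Of its 3 count columns (unstranded, opposite-strand and sense), the sense column was used, and the first 4 lines, which name no gene, were left out. Those lines held multimapping reads (6.66% to 14.5% in the 6 libraries), so close paralogs can be undercounted. Symbols, coordinates and 3′ UTRs came from GENCODE 29, which matched 57447 of 58096 IDs (version suffix ignored).

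Genes were kept by filterByExpr (minimum count 10), scaled by TMM and fitted in edgeR 4.0.16 under R 4.3.3 (robust quasi-likelihood F test), in 1 fit of all 9 libraries with group as the only term. Benjamini-Hochberg adjustment ran over 16072 genes, with a threshold of 0.05. Standard errors came from the F statistics. The script was tested on simulated data. Word deviations by library used log2(CPM + 0.1). Tables were made with Python 3.11.15, pandas 2.3.3 and numpy 2.4.6.

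The comparison, gene lists, words and the rule for named genes were chosen with earlier results of these data known. The rule takes TLX1, up to 25 genes each way by fold change, up to 3 called lncRNAs in each direction, up to 4 called genes per list, the 6 called genes of smallest p between siRNAs, up to 4 carriers of each word each way, and up to 6 uncalled list members of highest level. Some of the genes taken by this rule are not reported here. Alternatives were RLE factors, library totals, other filters, unstranded counts, a fit of the 6 libraries alone, a replicate block, DESeq2 1.42.0, limma-voom (limma 3.58.1), a minimum fold of 1.2, and fits with 1 library left out.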

Additional observations from a re-analysis of the deposited data

Results flagged for a closer look

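Opposite-strand counts lie outside the main measurement, and 2 of 9964 genes tested in them passed the threshold (0.0201%). Their CPM is relative to the opposite-strand reads of a library alone. Those were 5.22% to 6.32% of the gene reads on both strands in the 6 libraries. Opposite-strand CPM is therefore on a different scale from the sense CPM given above. AP000345.1 (chromosome 22, 23567064 to 23573507, plus strand), which lies beside and partly opposite IGLL1, had opposite-strand counts of 31.2, 26.2 and 25.7 CPM with scrambled siRNA and of 114, 124 and 86.3 CPM with s47. Its log2 fold change was 1.97 ± 0.27 (SE, edgeR adjusted p 0.0101). LCT (chromosome 2, 135787840 to 135837180, minus strand), which holds AC011893.1 on its other strand, had 93.0, 237 and 128 CPM against 435, 454 and 521 CPM. Its log2 fold change was 1.62 ± 0.25 (edgeR adjusted p 0.0319). The s47 libraries were above the scrambled ones in both genes. IGLL1 and AC011893.1 themselves rose by 1.74 and 1.52 in sense counts, and where the genes overlap a read can enter both values.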

How the results depend on the processing

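Against the 53 calls (39 higher, 14 lower), s47 against scrambled gave 432 with no filter on low counts (180 higher, 252 lower), 8 with only the groups compared (5 and 3), 203 with DESeq2 (140 and 63) and 13 with a fold minimum of 1.2 (9 and 4). Leaving out 1 library gave 4 to 275. Library totals without TMM factors gave 24 higher and 12 lower genes, and the median over all genes moved from -0.03 to -0.10. No named gene changed sign in any of these fits, and TLX1 stayed past the threshold in all of them. The contrast of s47 with s46 gave 3 genes with no filter on low counts and 0 in the other settings run. The 2 opposite-strand calls became 1 with only the groups compared, and 0 to 58 with 1 library left out. The cause was not tested.

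With the replicate number as a block, 125 genes passed (86 higher, 39 lower), and 4 on the opposite strand. Deviations of same-numbered libraries correlated at 0.203, -0.0299 and 0.298 for replicates 1, 2 and 3. Those of differently numbered libraries correlated at -0.31374 to 0.16961. The values of replicates 1 and 3 lay above that range and that of replicate 2 within it, so pairing is not seen throughout. Whether the libraries of replicates 1 and 3 were handled as pairs was not tested, and no label says that the numbers pair the libraries.

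With 3 libraries per group, few residual degrees of freedom remain. Most calls were lost without scrambled replicate 3 or without any 1 of the s47 libraries, while all 53 held without scrambled replicate 2 and 48 without scrambled replicate 1. Genes with few reads, such as CXCR3, DAB2IP and FRMD4A, have wide standard errors.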
